A study of Mus musculus with 24 samples.

Results

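The genes described here encode 10 mouse glutathione transferases: Gsta4, Gstt1, Gstt2, Gstt3, Gstm1, Gstm2, Gstp1, Gsto1, Gstk1 and Mgst1. They were chosen by symbol, and the list was proposed with earlier results of these same arrays known, so their own differences between lines are given as a description, without p-values. All 10 were on the array, on 13 of its 32917 named probes and among 22881 gene symbols.

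Total RNA of 7 mouse cell lines was hybridised to 24 one-colour Agilent arrays, with 1 sample per array. The 5 melanoma lines come from B16F1, a mouse melanoma line, marked with green fluorescent protein. They are the parental line B16F1-GFP-M (M, 3 arrays), the line B16F1-GFP-D (D, 4 arrays) of dormant cells taken from mice long after immunotherapy, a vaccination with irradiated cells that express GM-CSF, and the lines B16F1-GFP-DB#1 (4 arrays), B16F1-GFP-DB#2 (3) and B16F1-GFP-DB#3 (3), a later generation recovered from a brain site. The 2 myeloid lines are labelled M0 (4 arrays) and J365 (3 arrays), with a tag p20 in every title that the labels do not explain, and are compared under those names. The melanoma lines were grown in the same medium with no treatment stated, and the dormant cells had been expanded in vitro after isolation, so each line stands for 1 expanded stock. Nothing in the labels says that arrays of a line came from separate cultures, so p-values below measure the spread between these arrays.

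Glutathione transferases join the thiol of glutathione to reactive compounds, which makes them more soluble and ready for export. The soluble enzymes fall into classes named alpha, mu, pi, theta and omega, the kappa enzyme sits in mitochondria and peroxisomes, and microsomal members such as Mgst1 are anchored in membranes. Several of their genes are known targets of NRF2, the transcription factor of the antioxidant response.

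Values are normalized log2 signals, the log2 intensity of a probe less the 75th percentile of its array, and a difference of 1 is a 2-fold change of signal. A probe was read as measured where the scanner software marked it well above background. The share of probes so marked lay between 43.6% and 53.8% on 23 arrays and was 89.9% on D replicate 3. All 8 melanin markers were above background on each of the 17 melanoma arrays, at mean signals of 6.15 to 7.28 against -4.80 to -4.43 on the myeloid arrays. On the myeloid arrays 2 or 3 of these 8 were above background. The 8 blood cell markers had mean signals of 2.12 to 3.24 on the myeloid arrays and of -4.84 to -3.11 on the melanoma arrays, the highest being D replicate 3 (-3.98 at most without it). All 8 were above background on each myeloid array, and from 1 to 6 on the melanoma arrays, with 6 on D replicate 3 and at most 5 without it. Among these markers Coro1a fell in D, DB#1 and DB#3 against M (log2 differences of -1.55, -1.70 and -1.67, limma adjusted p = 0.0464, 0.0211 and 0.0476), and its part in the results below was not tested. In such bulk samples fewer cells of a type and less RNA per cell cannot be told apart.

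Among the 10 genes, Gsta4 gave the widest gap between the parental melanoma line and the lines derived from dormancy. It encodes an alpha class enzyme known for conjugating 4-hydroxynonenal, an aldehyde released when membrane lipids are oxidised. The signals were -4.18, -4.22 and -5.43 on M replicates 1 to 3, of which only replicate 2 was well above background. They were 0.74, -0.40, 0.15 and -0.19 on D replicates 1 to 4. In the brain site lines they ran from -0.49 to 0.12 in DB#1, from 0.11 to 0.85 in DB#2 and from -0.38 to 0.50 in DB#3. Every one of the 14 arrays of D and the DB lines lay above all 3 M arrays, while D and the DB lines overlapped each other.

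The log2 difference of Gsta4 from M was 4.68 ± 0.31 (standard error of the fit, n = 4 and 3) in D, a 25.7-fold change, 4.50 ± 0.31 in DB#1, 4.97 ± 0.33 in DB#2 and 4.76 ± 0.33 in DB#3. Because Gsta4 was measured on 1 of 3 M arrays, its size depends on how the dimmest signals are treated. With normexp background correction the same differences were 2.49, 2.32, 2.69 and 2.61. Without D replicate 3 the difference of D from M was 4.66, and within the 3 slides it was 5.61, 4.36 and 3.99. Between the DB lines and D the differences were -0.19, 0.28 and 0.08, none of which passed the threshold.

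**Figure D1:**
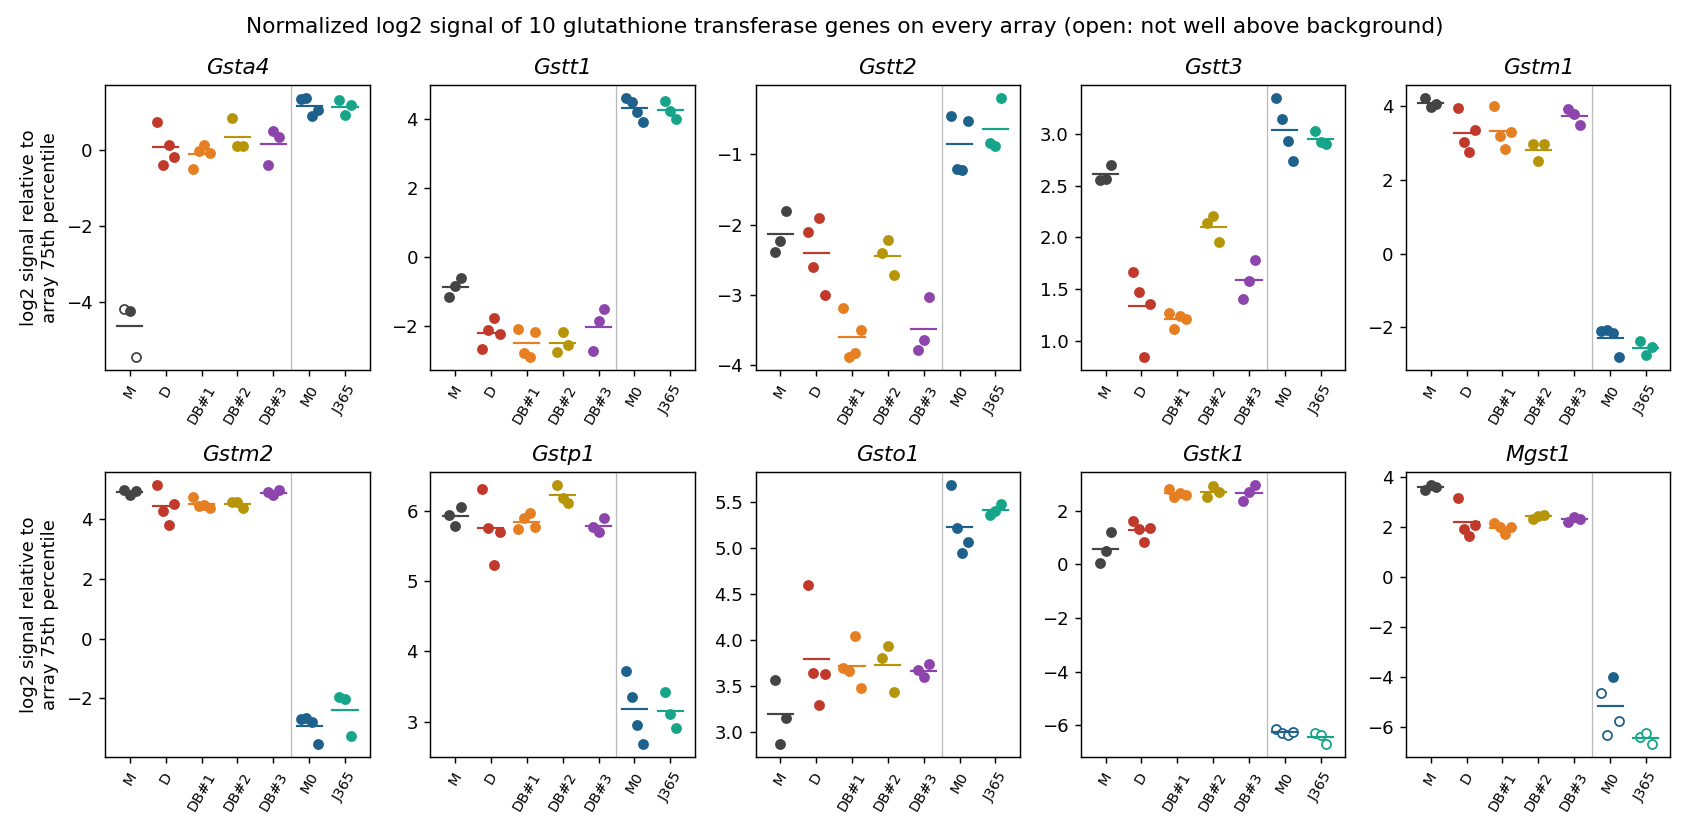
Normalized log2 signal of each of the 10 genes (vertical axis, relative to the 75th percentile of the array) on the 24 arrays of 7 lines, 1 point per array and a bar at each line's mean, with open points not well above background. The M points of Gsta4 lie below every other line, the M points of Gstt1 and Gstt3 lie above D and the DB lines, and Gstk1 is highest in the DB lines. Each panel has its own vertical scale.

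The theta class genes Gstt3, Gstt1 and Gstt2 lie in 1 cluster on chromosome 10, in that order, with Gstt4 between Gstt1 and Gstt2. Theta enzymes are known for acting on small halogenated compounds. The windows from 250 bases before to 50 bases after the start of Gstt3 and Gstt1 are shown because these genes were both lower in D than in M. They come from RefSeq on GRCm38.p6, are written 5′ to 3′ on the gene's strand, and were picked after the values were seen. Gstt3 lies at chr10:75781373-75781672 on the minus strand and Gstt1 at chr10:75797682-75797981 on the minus strand, with CCAAT or its complement ATTGG in capitals.
Gstt3: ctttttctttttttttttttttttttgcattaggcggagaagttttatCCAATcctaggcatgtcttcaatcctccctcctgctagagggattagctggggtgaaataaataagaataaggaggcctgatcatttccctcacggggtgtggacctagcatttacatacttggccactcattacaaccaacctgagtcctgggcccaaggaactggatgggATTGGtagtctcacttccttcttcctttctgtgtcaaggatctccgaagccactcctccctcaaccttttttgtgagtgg
Gstt1: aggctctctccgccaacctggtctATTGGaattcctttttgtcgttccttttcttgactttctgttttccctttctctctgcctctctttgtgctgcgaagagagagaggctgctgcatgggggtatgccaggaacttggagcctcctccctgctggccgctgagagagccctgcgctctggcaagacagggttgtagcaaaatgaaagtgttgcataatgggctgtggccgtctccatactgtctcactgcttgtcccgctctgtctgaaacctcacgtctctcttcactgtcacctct

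Both strands were searched for TGACNNNGC (the core of the antioxidant response element that NRF2 binds), TGANTCA (AP-1), CACGTG and CATGTG (E-box forms that MITF, the melanocyte factor, can bind), GGGCGG (GC box) and CCAAT. TGACNNNGC and TGANTCA can share bases. Of all 32851 promoter windows in the table, 12.4% held TGACNNNGC, 7.81% TGANTCA, 7.15% CACGTG, 14.2% CATGTG, 35.7% GGGCGG and 37.4% CCAAT. In the windows of Gstt3 and Gstt1 only CCAAT was found, at 2 places in Gstt3 and at 1 in Gstt1.

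Gstt3 was lower in D, DB#1 and DB#3 than in M, and stood between these and M in DB#2. Its signals were 2.56, 2.57 and 2.70 on the M arrays and 1.67, 1.47, 0.84 and 1.35 on the D arrays. They ran from 1.11 to 1.27 in DB#1, from 1.96 to 2.20 in DB#2 and from 1.40 to 1.78 in DB#3. No array of D or of a DB line reached the M range, and DB#2 overlapped neither D nor the other DB lines. The log2 differences from M were -1.28 ± 0.17 in D, -1.40 ± 0.17 in DB#1, -0.51 ± 0.18 in DB#2 and -1.02 ± 0.18 in DB#3, of which the DB#2 value did not pass the threshold. The DB#2 difference passed with quantile normalization (-0.55), normexp background correction (-0.58) and the percentile over detected probes (-0.57). Without D replicate 3, the lowest D array, the D value was -1.11. DB#2 was higher than D by 0.77 ± 0.17, which passed.

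Gstt1 was lower than in M in D and in all 3 DB lines. Its signals were -1.16, -0.84 and -0.61 on the M arrays and -2.66, -2.12, -1.77 and -2.22 on the D arrays. The DB#1 arrays lay between -2.89 and -2.07, the DB#2 arrays between -2.74 and -2.16, and the DB#3 arrays at -2.73, -1.86 and -1.50. None of these overlapped M, and D and the DB lines overlapped each other. The log2 differences from M were -1.32 ± 0.28 in D, -1.60 ± 0.28 in DB#1, -1.60 ± 0.30 in DB#2 and -1.15 ± 0.30 in DB#3. The D value was -1.46 without D replicate 3 and -0.82 with normexp background correction, and it missed the threshold without M replicate 3, at -1.19. It also missed the threshold without scaling and with only the M and D arrays in the fit. The DB#3 call was lost in 11 of 16 other settings, among them those without M replicate 1, 2 or 3 or DB#3 replicate 3 or 4, with differences from -1.57 to -0.70 over all 16.

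Gstt2 divided the melanoma lines in another way: M, D and DB#2 overlapped, and DB#1 and DB#3 lay below them. The signals were -2.38, -2.23 and -1.80 in M, and -2.10, -2.60, -1.90 and -3.01 in D. They were -2.40, -2.22 and -2.72 in DB#2, against -3.19, -3.88, -3.82 and -3.50 in DB#1 and -3.78, -3.64 and -3.02 in DB#3. DB#1 and DB#3 did not overlap M, DB#2 or D, though the lowest D array (-3.01) lay next to the highest DB#3 array (-3.02). The differences of DB#1 and DB#3 from M, -1.46 ± 0.28 and -1.34 ± 0.30, passed the threshold, and those of D and DB#2, -0.26 and -0.31, did not. DB#1 was below D by -1.19 ± 0.26, which passed but was lost in 13 of 18 other settings, and DB#3 by -1.08 ± 0.28, which did not pass. With normexp background correction the DB#1 and DB#3 differences from M were -0.64 and -0.53, and both calls were lost. The DB#3 call was lost in 7 of 16 other settings, among them without M replicate 3 or DB#3 replicate 3 or 4, with differences from -1.57 to -0.53 over all 16.

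Among the genes around the theta cluster, Ddt, which lies beside Gstt3, moved with it. Ddt encodes D-dopachrome tautomerase, a relative of the cytokine MIF, and Mif lies on the other side of the cluster. The Ddt signals were 4.81, 4.76 and 5.08 in M and 4.26, 4.06, 3.31 and 3.83 in D, without overlap. Ddt fell in D by 1.02 ± 0.21 on the log2 scale (limma adjusted p = 0.00793) and in DB#1 by 1.00 ± 0.21 (adjusted p = 0.00648). In DB#2 and DB#3 its differences of -0.29 (adjusted p = 0.79) and -0.69 (adjusted p = 0.157) did not pass, and DB#2 was above D by 0.73 ± 0.21 (adjusted p = 0.0437).

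Mif itself differed from M by -0.18, -0.13, 0.09 and -0.04 in D, DB#1, DB#2 and DB#3, and none passed. Cabin1, Susd2 and Smarcb1, the other genes of the neighbourhood that were tested, did not pass in D or a DB line against M either. Of the 8 genes tested there, the listed Gstt genes among them, 0 were higher than M in D, DB#1 and DB#3 and 4 in DB#2. Their median log2 differences from M were -0.46 in D, -0.70 in DB#1, -0.14 in DB#2 and -0.53 in DB#3. Over all genes tested the medians were -0.01, 0.04, 0.02 and 0.03. A cause was not tested. Gstt4 was not well above background on 23 of 24 arrays and was not tested, and neither was Derl3.

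**Figure D2:**
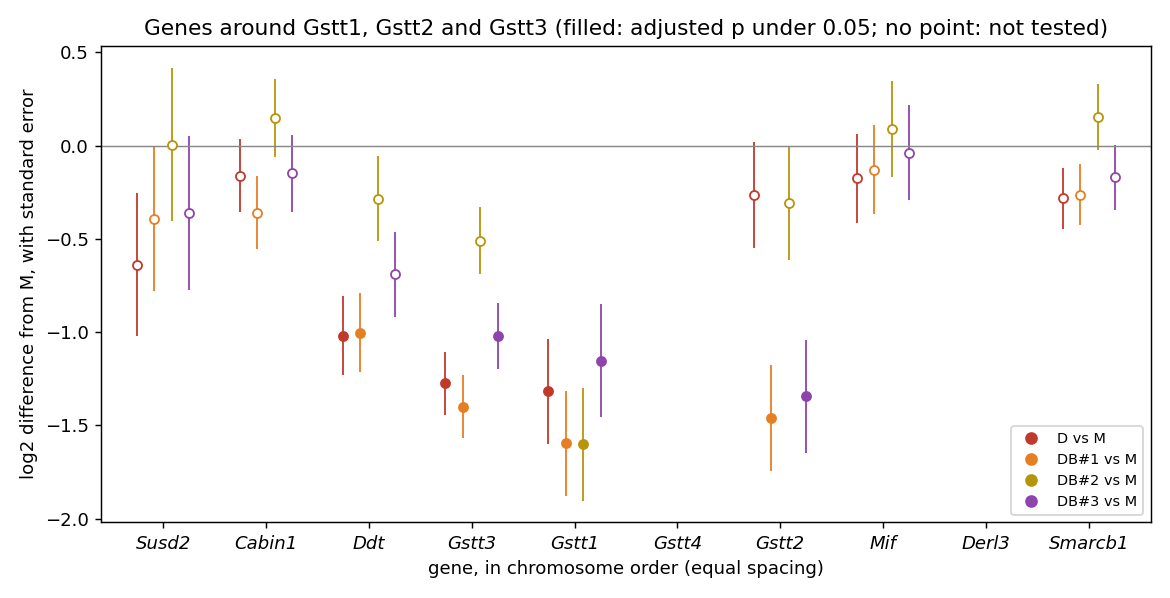
Log2 difference from M (vertical axis, with standard error) of 10 genes in their order along chromosome 10, equally spaced, for D and the 3 DB lines, with filled points past an adjusted p of 0.05. Ddt, Gstt3 and Gstt1 lie below 0 in all 4 lines, with Ddt and Gstt3 nearest to 0 in DB#2, while Mif and Smarcb1 stay near 0.

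Gstk1, the kappa class gene, separated the brain site lines from both M and D. The promoter windows of Gstk1 and of Mgst1 are shown because both genes differed between M and DB#1, the first higher and the second lower. Gstk1 lies at chr6:42245685-42245984 and Mgst1 at chr6:138140277-138140576, both on the plus strand of GRCm38.p6, and the capitals mark GGGCGG in both, ATTGG in Gstk1 and, in Mgst1, GCACGGTCA, a match to TGACNNNGC on the other strand.
Gstk1: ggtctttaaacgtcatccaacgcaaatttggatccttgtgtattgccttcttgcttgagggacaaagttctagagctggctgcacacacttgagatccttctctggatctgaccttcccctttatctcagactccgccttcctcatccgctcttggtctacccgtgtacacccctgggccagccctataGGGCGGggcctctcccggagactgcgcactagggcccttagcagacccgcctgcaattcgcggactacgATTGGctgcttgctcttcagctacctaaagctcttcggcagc
Mgst1: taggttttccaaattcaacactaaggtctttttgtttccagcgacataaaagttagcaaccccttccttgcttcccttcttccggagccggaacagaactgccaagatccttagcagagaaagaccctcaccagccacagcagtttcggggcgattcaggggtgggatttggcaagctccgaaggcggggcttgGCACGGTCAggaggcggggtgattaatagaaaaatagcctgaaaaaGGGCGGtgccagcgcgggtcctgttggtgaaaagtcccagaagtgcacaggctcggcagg

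Windows were found for 8 of the 10 genes, and that of Mgst1 shown here was the only 1 among them with TGACNNNGC. Mgst1 has another start in the table whose window held none of the 6 patterns. Such a match is a run of letters and shows no binding.

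The Gstk1 signals were 0.04, 0.48 and 1.22 on the M arrays and 1.62, 1.34, 0.85 and 1.35 on the D arrays. They were 2.83, 2.53, 2.67 and 2.58 in DB#1, 2.52, 2.93 and 2.71 in DB#2, and 2.38, 2.69 and 2.98 in DB#3. The 3 DB lines overlapped each other and lay above every M and D array, while M and D overlapped. The log2 differences from M were 2.07 ± 0.22, 2.14 ± 0.24 and 2.10 ± 0.24 in DB#1, DB#2 and DB#3, and those from D were 1.36 ± 0.21, 1.43 ± 0.22 and 1.39 ± 0.22. All 6 passed the threshold. The DB#3 difference from D missed it without DB#3 replicate 5, at 1.24, and with only the D and DB#3 arrays in the fit, and the difference of D from M, 0.71 ± 0.22, did not pass.

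Mgst1, the microsomal transferase 1 gene, was lower in D and the DB lines than in M on each of its 2 probes. The signals were 3.49, 3.69 and 3.61 in M, 3.15, 1.92, 1.64 and 2.05 in D, and from 1.73 to 2.49 over the 10 DB arrays. None overlapped M, and D replicate 1 stood between M and the rest. The log2 differences from M were -1.40 ± 0.39 in D, -1.63 ± 0.39 in DB#1, -1.18 ± 0.42 in DB#2 and -1.30 ± 0.42 in DB#3, of which only that of DB#1 passed. The fit shares 1 spread over all lines, and the Mgst1 standard deviation was 1.06 in M0 and 0.66 in D. It was 0.10 in M, 0.08 in DB#2 and 0.10 in DB#3. The DB#2 and DB#3 differences passed with normexp, with the mean of probes and with only the arrays compared. Without D replicate 1 the D difference was -1.72 and passed. It also passed with quantile normalization, normexp, the percentile over detected probes, the mean of probes or slide as a block. The DB#1 call was lost without M replicate 1, 2 or 3 or DB#1 replicate 3, with differences from -1.70 to -1.50 over its settings. The other probe gave -1.28, -1.56, -1.07 and -1.15 in the same order.

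The mu class genes Gstm1 and Gstm2 were among the bright signals of the melanoma lines. Gstm1 read 4.22, 3.97 and 4.05 in M and 2.96, 2.52 and 2.97 in DB#2, without overlap. Its difference from M was -1.26 ± 0.29 in DB#2, which passed, and the call was lost without M replicate 1 or DB#2 replicate 2. The differences of Gstm1 in D, DB#1 and DB#3 were -0.81, -0.75 and -0.35, and those of Gstm2 over D and the DB lines ran from -0.49 to -0.03, none of which passed. Both Gstm1 probes gave like values, with -1.25 for DB#2 on the other one. Genes of the mu class resemble each other in sequence, and signal shared between their probes was not tested.

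Gstp1 and Gsto1 showed no difference from M that passed in a melanoma line. Gstp1, the pi class gene, lay within 0.29 of M in each of the 4 lines, from -0.18 in D to 0.29 in DB#2. Gsto1, an omega class gene whose product works as a thiol transferase, was 0.60 higher in D and 0.53, 0.53 and 0.47 higher in DB#1, DB#2 and DB#3, each with a standard error of 0.24 to 0.26. The D arrays differed among themselves in these genes: replicate 1 was the highest D array for 8 of the 10 genes, and replicate 3 the lowest for 7.

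**Figure D3:**
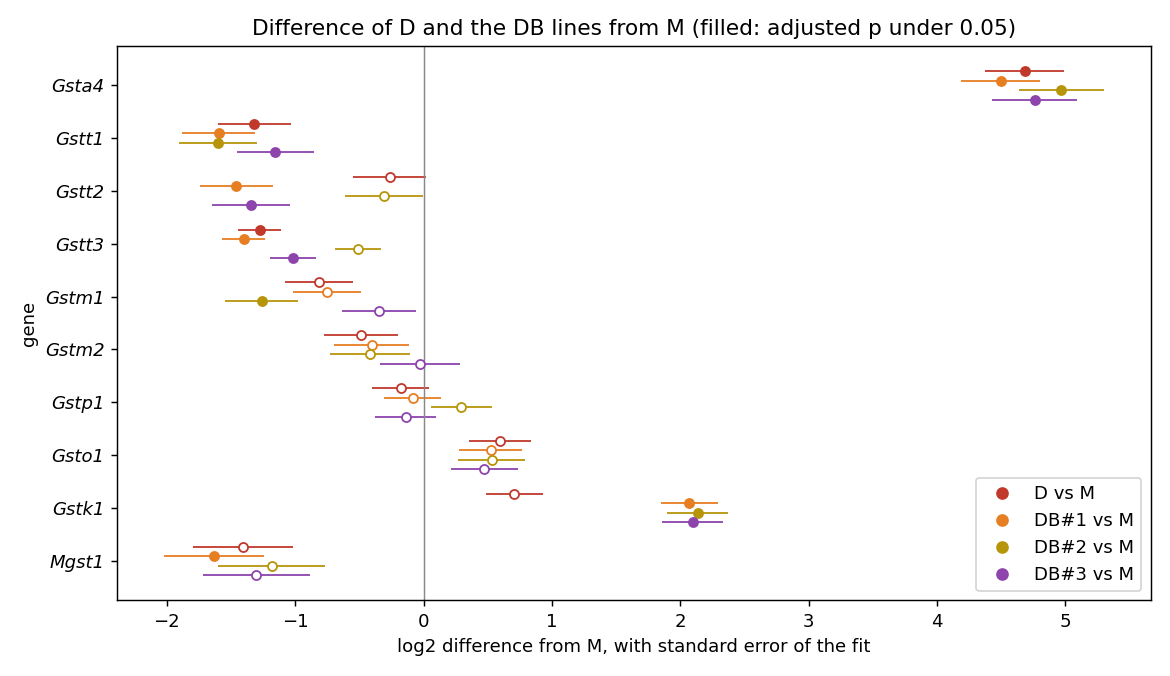
Log2 difference of D, DB#1, DB#2 and DB#3 from M (horizontal axis, with the standard error of the fit) for each of the 10 genes, with filled points past an adjusted p of 0.05. Gsta4 lies between 4.50 and 4.97 in all 4 lines, Gstk1 near 2 in the DB lines alone, and Gstt1, Gstt3 and Mgst1 below 0.

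Counted over the list, 1 gene was higher (Gsta4) and 2 were lower (Gstt1, Gstt3) in D than in M, where 1.38% of all genes tested were called higher and 1.59% lower. All genes tested, here and below, include array names without a gene symbol. With slide as a block 5 genes were called, Gstk1 and Mgst1 being added, without D replicate 1 also 5, without D replicate 3 it was 4 with Gstk1 added, and with only the arrays of M and D in the fit 1, Gsta4. Over all genes tested the calls moved too, from 278 higher and 320 lower to 1083 in all with slide as a block and 135 with only the arrays of M and D. Such counts without D replicate 1 or 3 are not given here. In DB#1 against M, 2 were higher and 4 lower, where 2.05% and 1.65% of all genes were called. In DB#2 against M, 2 were higher and 2 lower (2.15% and 1.28% of all genes), and in DB#3 against M 2 were higher and 3 lower (1.61% and 1.15%). Against D, DB#1 had 1 higher and 1 lower (0.386% and 0.0891%), DB#2 had 2 higher and 0 lower (3.9% and 2.44%), and DB#3 had 1 higher and 0 lower (0.24% and 0.13%). The list was chosen with these contrasts known and they share the M or D arrays, so nothing is read from the counts.

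In the myeloid lines Gsta4 signals were 0.91 to 1.37 in M0 and 0.92 to 1.31 in J365, above all melanoma arrays. Of the 8 listed genes tested between J365 and M0, 0 were called, and 0 had an unadjusted p under 0.05 by limma, with 0.721% of all genes called higher and 0.745% lower. The log2 differences of J365 from M0 lay between -0.28 for Gstm1 and 0.51 for Gstm2, and that of Gsta4 was -0.03 ± 0.31.

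The difference between the models, D minus M less J365 minus M0, reuses the D and M arrays on which the list was chosen and is given as a description. It was 4.71 ± 0.44 for Gsta4 and -1.18 ± 0.24 for Gstt3, the 2 listed genes called, where 2.08% of all genes tested were. The size for Gsta4 rests on M arrays of which 1 of 3 was above background, and with normexp background correction its difference of D from M was 2.49 and that of J365 from M0 -0.01. For Gstt1 it was -1.26 ± 0.40, and neither this nor the values of the other 7 listed genes passed. Gstk1 and Mgst1 were not tested between J365 and M0.

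M0 against M set the listed genes far apart, as it did most of the array, with 30.8% of all genes called higher and 27.7% lower. The 5 genes higher in M0 were Gsta4, Gstt1, Gstt2, Gstt3 and Gsto1, and the 5 lower ones were Gstm1, Gstm2, Gstp1, Gstk1 and Mgst1. Gstt1 signals ran from 3.93 to 4.62 in M0, against -1.16 to -0.61 in M, a log2 difference of 5.19 ± 0.28. That of Gstt3 was only 0.43 ± 0.17 and lost its call in 9 of 17 other settings, among them without M replicate 1 or 2 or M0 replicate 1 or 2, at 0.28 to 0.53 over all 17. Gstm1 and Gstm2 were lower in M0 by -6.36 ± 0.27 and -7.84 ± 0.29, and Gstp1 by -2.76 ± 0.22. Gstk1 was not well above background on any myeloid array and was at least 25.5-fold lower in M0 than in M. Mgst1 was above background on 1 of 4 M0 arrays, at -4.02, and on none of J365.

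Over all 7 lines, the order of the Gsta4 means was M0, J365, DB#2, DB#3, D, DB#1 and M. Neighbours in that order overlapped except J365 and DB#2, and DB#1 and M. For Gstt1 the order was M0, J365, M, DB#3, D, DB#1 and DB#2, with gaps between J365 and M and between M and DB#3. For Gstt3 it was M0, J365, M, DB#2, DB#3, D and DB#1, and the neighbours from J365 to DB#3 did not overlap. For Gstt2 the myeloid lines came first, J365 before M0, then M, D and DB#2, and then DB#3 and DB#1, with gaps only between these 3 sets. For Gstk1 the DB lines came first, then D and M, and then the myeloid lines.

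The genes most like Gsta4 over the 17 melanoma arrays were Fscn1 (Pearson r = 0.969), Spin2c (r = 0.961) and Emilin1 (r = 0.959). Here and below only genes with a symbol were ranked, out of 21455 array names above background on all arrays of at least 1 melanoma line. Fscn1 encodes the actin bundling protein fascin, and its mean signal was -2.86 in M and from 0.42 to 1.01 in D and the DB lines. Most like Gstt3 were Ccdc141 (r = 0.969), its neighbour Ddt (r = 0.963) and Gcc2 (r = 0.955). Most like Gstt1 were Tcp11l1 (r = 0.876), Pld2 (r = 0.860) and Mdga2 (r = 0.851), and most like Gstt2 were Gm5622 (r = 0.907), Tmem106a (r = 0.897) and Slx (r = 0.894). Arrays of a line are not independent here, so these r values are a description of 5 lines.

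The other genes of glutathione metabolism held no call between D and M. Of 74 genes listed beside the members, in lists of other transferases, glutathione synthesis and recycling, peroxidases and glutaredoxins, conjugate export and the NRF2 system, 72 were on the array and 61 were tested in D against M. By limma 0 of these 61 were called, where 1.38% of all genes tested were called higher and 1.59% lower. At such shares few calls are due in a list of this size or smaller, so nothing is read from the 0. In the same fit 11 of the 61 had an unadjusted p under 0.05 by limma (2358 of 20145 among all genes tested). Their median log2 difference was -0.14 beside -0.01 over all genes tested. The 15 other transferases tested had a median of -0.25, and 3 of them lay above 0, beside 9696 of 20145 among all genes tested. Mu class genes are among these 15, and signal shared between their probes was not tested. Of the 16 NRF2 system genes, among them Nqo1 and Hmox1, 0 were called by limma in D against M and 0 had an unadjusted p under 0.05. Of the 15 or 16 tested in each DB line against M, 0 were called, with 2, 1 and 0 at an unadjusted p under 0.05 in DB#1, DB#2 and DB#3. Nqo1 was called in DB#1 with the replicate number as a block. Without D replicate 1, 5 of the 61 genes were called, and without D replicate 3, 1. Counts over all genes tested without these arrays are not given here.

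In DB#1 against M, where 2.05% of all genes tested were called higher and 1.65% lower, 1 of 61 pathway genes was called. This was Abcc2, which encodes an exporter of glutathione conjugates. Its signals were 0.42, 0.18 and 0.35 in M and -1.52, -1.09, -1.14 and -1.29 in DB#1, and it fell by 1.58 ± 0.32 on the log2 scale (limma adjusted p = 0.00495). With the replicate number as a block 3 genes were called in DB#1, Abcc2 (-1.49, adjusted p = 0.017), the alpha class gene Gsta2 (-0.98, adjusted p = 0.0193) and Nqo1 (1.86, adjusted p = 0.04). That block was fitted over the arrays of all lines, so it is not a paired fit of DB#1 and M. In DB#3, with signals of -1.80, -2.43 and -2.04, Abcc2 fell by 2.40 ± 0.35 (adjusted p = 0.000143). In DB#2 it read 1.89, 1.53 and 1.18, above every M array, though its difference from M, 1.21 ± 0.35, did not pass (adjusted p = 0.0617), and it was 2.10 ± 0.32 higher than in D (adjusted p = 0.000216). The Abcc2 values of DB#2 and of the other DB lines lay on opposite sides of the M values, without overlap.

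In DB#2 against M, 5 of 60 pathway genes were called, where 2.15% of all genes tested were called higher and 1.28% lower. Gstm7 (mu class), Gstm3 (mu class), Hpgds (the sigma class transferase that makes prostaglandin D2) and Cbs fell, and Mgst3 rose. Gstm7 was not above background on any DB#2 array and was at least 3.74-fold lower than in M (limma adjusted p = 9.23e-06), and Mgst3 rose by 0.89 ± 0.22 (adjusted p = 0.0231). Gstm3 fell by 1.21 (adjusted p = 0.0424), Hpgds by 0.78 (adjusted p = 0.0242) and Cbs, an enzyme of cysteine synthesis, by 1.05 (adjusted p = 0.0399). Without M replicate 1, DB#2 replicate 2 or DB#2 replicate 3 the count was 1, without M replicate 2 it was 2 and without M replicate 3 it was 3.

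In DB#3 against M, Abcc2 and Hpgds fell, the latter by 0.77 (adjusted p = 0.0284), and Cbs rose by 1.15 ± 0.28 (adjusted p = 0.023), the reverse of its fall in DB#2. These were 3 of 60 genes, where 1.61% of all genes tested were called higher and 1.15% lower. Without DB#3 replicate 4 or 5 the count was 1. Against D, DB#1 had 0 calls by limma among 60 genes, with 5 at an unadjusted p under 0.05 (849 of 20203 among all genes), and DB#3 had 2, Abcc2 (-1.51, adjusted p = 0.0419) and Nqo1 (-2.58, adjusted p = 0.0432, at least 1.8-fold lower), of which 0 or 1 were left without any single array. Over all genes tested against D, 0.386% were called higher and 0.0891% lower in DB#1, and 0.24% and 0.13% in DB#3. DB#2 had 7 of 61 against D, where 3.9% of all genes tested were called higher and 2.44% lower. Abcc2, Glrx (0.79, adjusted p = 0.00668) and Mgst3 (0.77, adjusted p = 0.0262) rose, and Gstm7 (adjusted p = 6.18e-05), Cbs (-1.68, adjusted p = 0.000218), Oplah (-1.28, adjusted p = 0.0148) and Abcg2 (-0.93, adjusted p = 0.0207) fell. Without DB#2 replicate 3 there were 4.

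**Figure D4:**
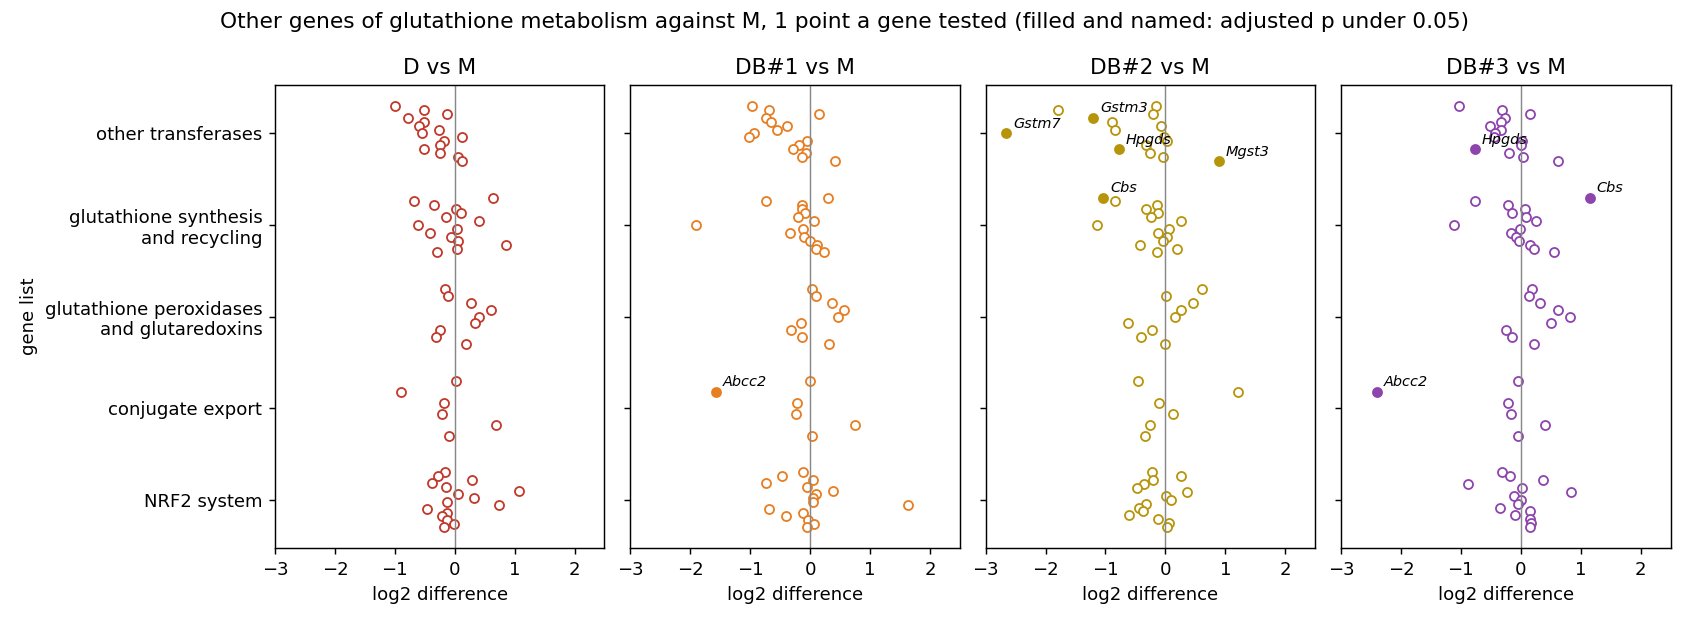
Log2 difference from M (horizontal axis) of each gene tested in 5 lists of glutathione metabolism, 1 panel for each of D, DB#1, DB#2 and DB#3, with called genes filled and named. No gene is filled in the D panel, and Abcc2 lies at -1.58 in DB#1 and at -2.40 in DB#3.

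Between the myeloid lines, where 0.721% of all genes tested were called higher and 0.745% lower, 1 of 58 pathway genes was called. This was Cth, the cystathionine gamma-lyase that yields cysteine for glutathione. It was not above background on any M0 array and read -0.93, -0.94 and -0.03 in J365, at least 11-fold higher (limma adjusted p = 5.19e-10). In M0 against M, 17 of 64 were called higher and 26 lower, beside 30.8% and 27.7% of all genes tested. Among the other transferases Mgst2 rose by 8.13 ± 0.48 (adjusted p = 5.75e-12), with Mgst3, Gstp3, Gstcd and Gstz1 also higher, and Gstm3 fell by 5.52 ± 0.31 (adjusted p = 1.84e-12) and Gstm5 by 4.62 ± 0.25 (adjusted p = 1.03e-12). In the NRF2 system Maff (3.50, adjusted p = 0.000169) and Nqo1 (2.97, adjusted p = 0.000116) rose and 7 fell. In the synthesis list 6 rose and Chac1, Cth, Cbs, Gss and Ggt7 fell, in the peroxidase and glutaredoxin list Glrx and Glrx5 rose and Gpx8 fell, and in the export list Abcg2, Abcc2 and Abcc5 fell.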

How the data were processed

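Gene expression was measured on 24 one-colour whole-mouse arrays, 8 on each of 3 slides, and groups were taken from the sample labels. The authors deposited scanner tables from Agilent Feature Extraction 10.7.3.1, with an intensity per spot that the software had corrected for background and not scaled between arrays. The value table that the authors deposited for the whole series repeated these intensities (1511424 of 1511424 equal). The authors' statistics were run in other software whose test is not given in the sources used here.

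Of 59305 non-control spots per array, outlier spots were left out and spots of a probe averaged, which left 56488 probes. Of these 32917 were named through RefSeq accessions (GRCm38.p6). The other probes kept the name given on the array. All 45547 names, against 22881 gene symbols, were eligible for the tests. Counts and shares of all genes tested, and the adjustment of p-values, thus include names without a gene symbol. Log2 intensities less the array's 75th percentile gave the normalized log2 signal, and the brightest probe stood for a gene. No array pair was identical, and no non-control spot was saturated.

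Lines were compared with limma 3.58.1 (R 4.3.3), lmFit and eBayes with 1 coefficient for each line over all arrays, leaving 17 residual degrees of freedom. A gene was tested where all arrays of at least 1 of the lines compared were well above background for it. P-values were adjusted by Benjamini-Hochberg over all genes tested, with calls at 0.05. A bound ("at least") sets the bright line's mean against the higher of the dim signal and the lowest signal above background on each array. The step was tested on simulated data. The number of arrays, 3 or 4 per line, limits the precision.

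The genes, lists and rules were chosen with earlier results of these data known. All 10 genes are named. Rises in the export list in M0 against M are not reported here. Pathway genes named are the 2 largest rises and falls among those called and above background on all arrays of both lines, and any gene in a list with 5 or fewer calls. Nearest genes are 3 on each side with a probe, and likeness is the top 3 by Pearson r among genes with a symbol. Alternatives were quantile scaling, normexp correction with an offset of 50, the percentile over detected probes, no scaling, no filter, the mean of probes, slide or replicate number as a block, only the arrays compared, and each array left out. Same-numbered arrays of DB#1 and M deviated together (3 pairs, correlations of 0.567 to 0.911). No label pairs them, and this comparison was picked by those same correlations, so a pairing is not established. The block gave each replicate number 1 effect, shared by the numbered arrays of all lines. Normexp was run on median signals, as mean signals are not used here. Setting the filter before the moderation of variances was decided after both orders had been run, and the other order was added as an alternative after seeing the data.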

Additional observations from a re-analysis of the deposited data

Results flagged for a closer look

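Gstm1 and Gstm2 had 1 array far from the others in M0, the array whose title carries no number (named replicate 4 here). Its Gstm1 signal was -2.81, against -2.16 to -2.06 on the other M0 arrays. Its Gstm2 signal was -3.53, against -2.81 to -2.66. These were 2 of 30 sets of 4 arrays examined over the 10 genes, and chance alone gives about 1 in 20.

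The effect of D against M differed from that of J365 against M0 by a test of the difference in the same model. Gsta4 (4.71) and Gstt3 (-1.18) differed among the listed genes, which had been chosen with D against M known. Among the pathway genes Gsta2, an alpha class transferase, differed by -2.43 (limma adjusted p = 0.0013), Cth by -5.65 (adjusted p = 1.91e-07) and Oplah, 5-oxoprolinase, by 1.76 (adjusted p = 0.042). Of 66 pathway genes tested 1 was thus called higher and 2 lower, where 2.08% of all genes tested were called, so nothing is read from the count. Gsta2 read 4.67 to 5.42 in D and 5.53 to 6.49 in M, and it was above background on no M0 array and on 1 of 3 J365 arrays, so its myeloid difference has no measured size. Cth was likewise not above background in M0. No explanation was tested for these values.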

How the results depend on the processing

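Of 33 calls of listed genes, 22 were kept in every setting run and 0 changed sign, and of 62 calls of pathway genes 45 were kept and 0 changed sign. M0 against M held 5 higher and 5 lower listed calls and 17 higher and 26 lower pathway calls. It held most of the pathway calls kept, while most pathway calls of the other comparisons were lost in at least 1 setting. Listed calls of the other comparisons were also lost more often than those of M0 against M. Where a count moved by over 1.5 times, the cause was not tested. Calls of listed genes in D against M went from 3 to 6 with quantile normalization, to 5 with the percentile over detected probes, to 5 with slide as a block and to 1 with only the arrays compared. Over all genes tested these settings called 798, 850, 1083 and 135, beside 278 higher and 320 lower in the main fit. Listed calls in DB#3 against M went from 5 to 3 with quantile normalization and to 3 without scaling. There 630 and 495 of all genes tested were called, beside 332 higher and 237 lower in the main fit. Listed calls in DB#1 against D went from 2 to 1 with quantile normalization, normexp, the percentile over detected probes, no scaling, no filter, only the arrays compared or variances moderated over all genes. These settings called 99, 80, 81, 58, 83, 34 and 75 of all genes tested, beside 78 higher and 18 lower in the main fit. Only the arrays compared left 1 of 2 listed calls in DB#2 against D and 0 of 1 in DB#3 against D. With that setting 300 and 11 of all genes tested were called, beside 806 higher and 504 lower, and 48 higher and 26 lower, in the main fit.

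Pathway calls in D against M, 0 as reported, were 3 with quantile normalization, 1 with normexp, 5 with the percentile over detected probes, 2 without scaling and 1 with slide as a block. In DB#1 against M, 1 became 3, 3, 4 and 2 under those 4 scalings, 2 with the mean of probes, 4 with slide as a block and 5 with only the arrays compared. In DB#2 against M, 5 became 9 with the percentile over detected probes, 1 without the filter and 2 with variances moderated over all genes. In DB#3 against M, 3 became 1 without the filter and 6 with slide as a block. In DB#2 against D, 7 became 2 with only the arrays compared. In DB#3 against D, 2 became 0 with quantile normalization, normexp, no filter, only the arrays compared or variances moderated over all genes, and 1 with slide as a block. In J365 against M0, 1 became 2 with quantile normalization, normexp, the percentile over detected probes, no scaling or no filter, and 3 with slide as a block or only the arrays compared. Over all genes tested, in the order given, D against M held 798, 481, 850, 547 and 1083 calls. DB#1 against M held 878, 671, 1051, 680, 742, 1163 and 970. DB#2 against M held 995, 495 and 562, DB#3 against M 429 and 809, and DB#2 against D 300. DB#3 against D held 70, 58, 47, 11, 54 and 101, and J365 against M0 539, 439, 430, 371, 274, 499 and 242. The setting without a filter tested 45547 names.

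Outside DB#1 against M, where they deviated together, same-numbered arrays gave no comparison with 3 or more pairs in which every correlation was above 0.1. In every comparison the labels give such arrays only a shared number. Over all 24 pairs the correlation ran from -0.793 to 0.911, and 11 were above 0.1. With the replicate block, listed calls were 6 in DB#1 against M, as without it, 3 in D against M and 0 in DB#3 against D (1 without it, Gstk1). Pathway calls with the replicate block were 1 in D against M, 3 in DB#1 against M, 1 in DB#3 against M and 0 in DB#3 against D. Over all genes tested that block gave 642, 805, 398 and 41 calls in these comparisons.

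With 1 array left out at a time, listed calls ran from 3 to 5 in D against M, 1 to 2 in DB#1 against D, 0 to 1 in DB#3 against D and 3 to 5 in DB#3 against M. DB#3 against M gave 3 without M replicate 3 or DB#3 replicate 3 or 4. Pathway calls ran from 0 to 5 in D against M, 1 to 2 in DB#1 against M, 1 to 4 in DB#2 against M, 1 to 3 in DB#3 against M, 4 to 9 in DB#2 against D, 0 to 1 in DB#3 against D and 1 to 2 in J365 against M0. Counts over all genes tested with 1 array left out are not given here, so nothing is read from these ranges.

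Moderating variances over all genes was chosen after seeing the data. It lost the listed calls of Gstt1 in DB#3 against M, Gstt2 in DB#1 against D and Gstt3 in M0 against M. It also lost Gstm3, Hpgds and Cbs in DB#2 against M, Hpgds in DB#3 against M, Abcc2 and Nqo1 in DB#3 against D and Mafg in M0 against M. Without scaling the median of all genes shifted by over 0.1 in 6 comparisons, from -0.01 to 0.17 in D against M, 0.02 to 0.25 in DB#2 against M, 0.05 to -0.06 in DB#1 against D, 0.06 to -0.15 in DB#3 against D, 0.02 to 0.17 in J365 against M0 and 0.13 to -0.01 in M0 against M. Calls higher and lower then went from 278 and 320 to 407 and 140 in D against M, from 451 and 269 to 1122 and 133 in DB#2 against M, from 806 and 504 to 879 and 330 in DB#2 against D, from 48 and 26 to 18 and 42 in DB#3 against D, and from 149 and 154 to 258 and 113 in J365 against M0. Signals near background, as of Gsta4 in M and Gstt2, limit how far their differences can be sized.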
